A study of Oryza sativa Japonica Group with 24 samples.

Results

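Among genes expressed in rice anthers, 200 were selected because their difference between SD and LD anthers changed sign between noon and the end of the night. Each had a higher level in SD anthers at 12:00 and a higher level in LD anthers at 04:00. For every locus, the difference D was the mean log2(CPM + 1) of the SD libraries minus that of the LD libraries, where CPM is the read count scaled to the total of its library. Loci were ranked by the smaller of D at 12:00 and -D at 04:00, and the top 200 of 16484 loci with a mean of at least 5 CPM over all libraries were taken, out of 55986 loci counted. The ranking value ran from 2.52 to 1.07, so by library totals the selected genes differed by at least about 1 log2 unit in opposite directions. On that scale the median D of all 16484 loci was 0.206 at 12:00 and 0.193 at 04:00. With TMM scaling in edgeR the median log2 fold change of the selected genes was 1.44 at 12:00 and -1.62 at 04:00. Some noon differences were then under 1 log2 unit, as for LOC_Os02g50960 with means of 35.4 CPM in SD and 20.4 CPM in LD. Because the values at 12:00 and 04:00 chose the genes, they are described here without a test. Tests of the selected genes are given only for 08:00, 16:00, 20:00, and 00:00.

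The anthers came from the wild type of the *japonica* variety 9522, grown in paddy fields, and were taken at mitosis I, judged by anther length. Plants in SD received a 12-h photoperiod because black cloth covered them at the end of the day, and plants in LD had natural daylight of about 14 h. Both treatments began after panicle initiation. Anthers were collected every 4 h at 6 time points with 2 biological replicates, which gave 12 SD and 12 LD libraries, and 08:00, 12:00, and 16:00 were in the light. The deposited design text gives 14 h as the length of the night in LD. The growth protocol, which gives it as daylight, was followed. All groups share one genotype and the same criterion of stage, and the anthers were sampled whole. In the study's table, clean reads tracked the column totals of the same label in SD. In LD the column totals tracked the rows labelled 4 h earlier, in both replicates. Whether the LD rows or the LD columns carry a shifted label cannot be told from the totals. If the columns do, every comparison of SD with LD here sets libraries 4 h apart. Under the labels of the LD columns, the clock gene *OsCCA1/OsLHY* was highest at 04:00 and 08:00, and *OsGI* and *OsFKF1* were highest at 16:00, in both replicates.

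Plants keep daily time with a circadian clock that is reset by dawn and dusk, and many genes for photosynthesis, sugar metabolism, and transport are known to cycle under its control and that of light. The day length shifts the time at which such genes are highest. Anthers at mitosis I import sugars for starch filling of the pollen, and the green anther wall itself carries chloroplasts.

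Total counts per library ranged from 18043740 to 27529649, with 28171 to 29547 loci detected. Replicates correlated at 0.924 to 0.992 over the 16484 genes on the log2(CPM + 1) scale. The lowest of these values belonged to SD 00:00, and replicate 2 of that group stood apart for the selected genes. Their median level there was 0.04 log2 units above the gene's own mean over all libraries, whereas it was -0.69 in replicate 1. Counts of genes that passed a test resting on SD 00:00 are therefore given with and without replicate 2. Medians, shares, and cosine fits that use SD 00:00 rest on both replicates unless stated otherwise. For markers of the anther wall and tapetum (*OsABCG15*, *OsLAP6*, and *HTH1*), none of which was selected, the summed level was 84.7 to 1197 CPM in SD libraries and 0.385 to 29.8 CPM in LD libraries. This marker difference had the same direction at all 6 time points, and its part in the results was not tested. The study names these markers among genes that differed between SD and LD at all 6 time points of these libraries. A difference at each time point was thus set by their choice and is no independent measure of tissue content. A list of 18 pollen genes, none selected, summed to 2065 to 4043 CPM in SD and 2069 to 6267 CPM in LD. In whole anthers, fewer cells of a type and less RNA per cell cannot be told apart.

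The medians of the selected genes lay on opposite sides of their means in SD and LD anthers at 12:00 and 04:00, as the selection fixed, and also at 00:00. Centred on each gene's mean over 24 libraries, the median level in SD anthers was 0.01 at 08:00, 0.67 at 12:00, 0.20 at 16:00, -0.15 at 20:00, -0.33 at 00:00, and -0.78 at 04:00 (log2 units). In LD anthers it was 0.07 at 08:00, -0.66 at 12:00, 0.01 at 16:00, -0.05 at 20:00, 0.35 at 00:00, and 0.75 at 04:00. SD anthers thus started near the mean, stood highest at noon, and were lower at each later time point, while LD anthers were lowest at noon and highest before dawn. At 08:00, 16:00, and 20:00 the library medians of SD and LD overlapped.

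**Figure D1:**
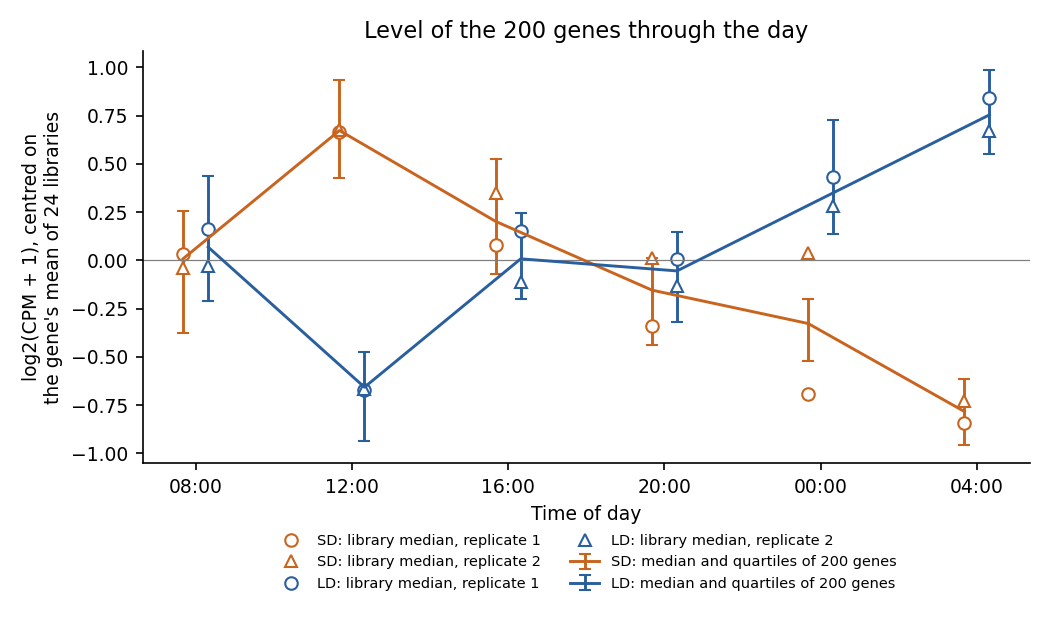
Level of the 200 selected genes (log2(CPM + 1) minus each gene's mean over 24 libraries) against time of day in SD and LD anthers. Lines and bars give the median and quartiles of the genes' group means, and open symbols give the median in each library. The medians are 0.67 and -0.66 at 12:00 and -0.78 and 0.75 at 04:00, and the SD libraries at 00:00 lie apart at -0.69 and 0.04.

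The selected genes went both ways at the morning and evening time points, so that their medians were near 0. The median D of the 200 genes was 0.01 at 08:00, 0.15 at 16:00, and -0.04 at 20:00, against 0.15, -0.06, and 0.07 for all 16484 genes. Single genes ranged from -2.05 to 1.91 at 08:00, from -1.43 to 1.93 at 16:00, and from -1.78 to 1.93 at 20:00. At 00:00, a time point outside the selection, the median D was -0.56 against 0.16 for all genes. There, 171 of the 200 genes were higher in LD anthers, which is 85.5% against 35.7% of all genes. In 118 of the 200 genes (59%) both LD libraries lay above both SD libraries at 00:00, against 17.9% of all genes. In 8 genes (4%) both SD libraries lay above, against 38.5% of all genes. These shares use library totals, which put the median of all genes at 0.16 toward SD and widen the contrast. TMM-scaled shares at 00:00 are given below. At 16:00, 135 genes (67.5%) were higher in SD anthers, against 44.6% of all genes. At 12:00 and 04:00 the medians of D were 1.61 and -1.32, with ranges of 1.07 to 3.8 and -2.71 to -1.07, values that the selection fixed.

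**Figure D2:**
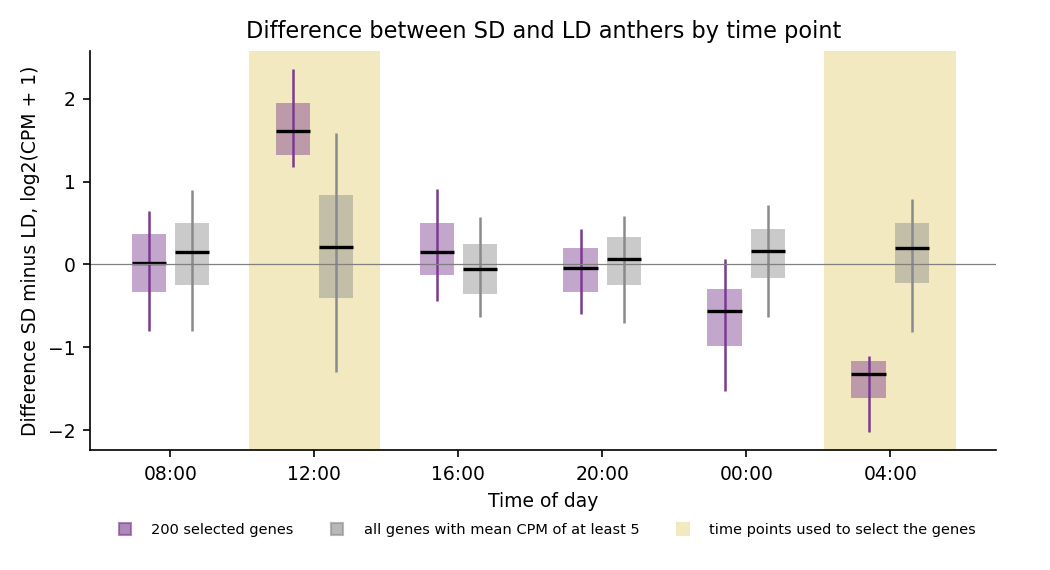
Difference in log2(CPM + 1) between SD and LD anthers at each time point, for the 200 selected genes and for all genes with a mean of at least 5 CPM. Black lines are medians, boxes are quartiles, whiskers are the 10th and 90th percentiles, and shading marks the time points that selected the genes. Outside the shading, the medians stay between -0.04 and 0.15 at 08:00, 16:00, and 20:00, and the median at 00:00 is -0.56.

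A differentially expressed gene (DEG) was called with edgeR's quasi-likelihood test at a Benjamini-Hochberg adjusted p under 0.05 over all genes tested and a change of 1 log2 unit or more. At 00:00, 7 of the 200 genes were DEGs, all up-regulated in LD anthers, where 1.56% of all genes tested were called (0.753% higher in SD and 0.804% higher in LD). With replicate 2 of SD 00:00 left out there were 115 such genes, again all higher in LD, and 15.4% of all genes were called. Without replicate 1 there were 8, with 1.29% of all genes called. With replicate 1 alone, the TMM-scaled level in SD lay below the LD mean for 194 of 200 genes with a median of -1.02 log2 units, and with replicate 2 alone for 153 genes with a median of -0.38. For all genes the corresponding shares were 46.5% and 53%. The direction at midnight was therefore the same for most selected genes with either SD library, and the size depended on which one was used. In DESeq2, 49 of the 200 genes passed the same thresholds, 48 of them higher in LD, with 7.93% of all genes called. In edgeR without a filter on low counts there were 32 (3.97% of all genes), and in one fit of all 24 libraries 57 (10.2%).

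The 7 midnight DEGs included genes of lipid oxidation, hormone conjugation, and transport. The lipoxygenase 2.1 gene (LOC_Os12g37260), whose product oxidizes polyunsaturated fatty acids, was at 4.31 and 7.11 CPM in SD and 23.0 and 33.8 CPM in LD at 00:00. Its log2 fold change was -2.29 ± 0.35 (SE, n = 2 per group, edgeR adjusted p = 0.041). *OsGH3.1* (LOC_Os01g57610), annotated as an enzyme that conjugates the auxin indole-3-acetic acid to amino acids, had 2.4 and 4.31 CPM in SD and 17.7 and 14.4 CPM in LD. A transporter family gene (LOC_Os07g39350) had 8.71 and 12.2 CPM in SD against 31.6 and 31.7 CPM in LD, and an O-methyltransferase gene (LOC_Os10g02880) 20.5 and 25.4 against 66.5 and 68.4 CPM. In each of these genes the LD libraries were at least 2-fold above the higher SD library. A Cupin domain gene (LOC_Os08g09010), a beta-glucosidase gene (*Os5bglu19*, LOC_Os05g30250), and LOC_Os05g50930 completed the 7, and their edgeR adjusted p values were 0.0392, 0.041, and 0.0392. For LOC_Os05g50930 the call was lost without replicate 1 of SD 00:00 (0.0526). *OsGH3.1* and *Os5bglu19* were named after their values were seen.

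At 08:00, 22 of the 200 genes were DEGs, which is 11% against 17.7% of all genes tested. Of these, 5 were higher in SD (7.3% of all genes) and 17 higher in LD (10.4% of all genes). Scaled by library totals without TMM there were 7 and 10. LOC_Os01g60940 was the clearest one up-regulated in SD. Its libraries held 15.1 and 16.4 CPM in SD and 4.14 and 3.46 CPM in LD (log2 fold change 2.05 ± 0.22, edgeR adjusted p = 0.00141, n = 2 per group). LOC_Os02g28220 was also higher in SD, with 18.1 and 23.3 against 9.87 and 8.19 CPM. In the other direction, LOC_Os02g13510 had 3.06 and 2.09 CPM in SD and 9.36 and 12.8 CPM in LD, a log2 fold change of -2.08 ± 0.30 (edgeR adjusted p = 0.00422, n = 2 per group). A glycosyl hydrolase family 3 gene (LOC_Os11g44950), from a family of cell wall and glucoside hydrolases, had 5.72 and 4.51 CPM in SD against 13.9 and 15.2 CPM in LD. Leaving out replicate 2 of LD 08:00 gave 13 of 200, and 7.49% of all genes were called.

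At 16:00 no selected gene was a DEG in the edgeR fit of that time point, and none of all 23466 genes tested was called (0%). At an unadjusted p under 0.05, 64 of the 200 genes and 7275 of all genes passed. DESeq2 called 22 of the 200, 20 of them higher in SD, with 5.8% of all genes called. In edgeR without a filter on low counts there were 21 (4.19% of all genes), and in one fit of all 24 libraries 20 (5.82%). Leaving out replicate 1 of LD 16:00 gave 31 in edgeR, 28 of them higher in SD, with 7.41% of all genes called. LOC_Os04g33830, among those with the smallest p, had 130 and 168 CPM in SD and 53.3 and 35.0 CPM in LD at 16:00 (log2 fold change 1.76 ± 0.25, edgeR adjusted p = 0.0624, n = 2 per group). LOC_Os01g56680 had 216 and 244 against 88.0 and 72.3 CPM. LOC_Os01g46350, among the lowest p values in the other direction, had 20.1 and 20.7 CPM in SD and 32.9 and 42.5 CPM in LD.

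At 20:00, which was in the dark in both photoperiods, 10 of the 200 genes (5%) were DEGs, 5 in each direction, beside 4.99% of all genes tested (1.23% higher in SD and 3.76% higher in LD). With library totals in place of TMM there were 4 and 2. Of the 5 that were up-regulated in SD, 3 carried the GO term photosynthesis and are described below. The others were LOC_Os04g33830, with 18.1 and 25.7 CPM in SD against 8.77 and 6.94 CPM in LD, and LOC_Os12g17600, with 125 and 126 CPM in SD against 61.3 and 56.4 CPM in LD. LOC_Os12g17600 had the opposite order at 08:00, with 71.6 and 50.3 CPM in SD and 107 and 146 CPM in LD (log2 fold change -1.04, edgeR adjusted p = 0.0228). LOC_Os01g18120 was up-regulated in LD at both 08:00 and 20:00, and at 20:00 its libraries held 1.91 and 2.32 CPM in SD and 7.08 and 13.4 CPM in LD. When replicate 2 of LD 20:00 was left out, 1 of the 200 genes was called, with 1.55% of all genes called.

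The time at which a gene was highest describes the same pattern. In SD anthers 153 of the 200 genes had their highest mean at 12:00 and 26 at 16:00, and 160 had their lowest at 04:00. In LD anthers 136 were highest at 04:00, 31 at 00:00, and 23 at 08:00, and 152 were lowest at 12:00. For 102 genes the highest mean fell at 12:00 in SD and at 04:00 in LD. The selection favors these times. Restricted to the 4 time points it did not use, 123 genes (61.5%) were highest at 16:00 in SD, against 31.1% of all genes, and 111 genes (55.5%) were highest at 00:00 in LD, against 22.8% of all genes. The latter share uses LD libraries alone.

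**Figure D3:**
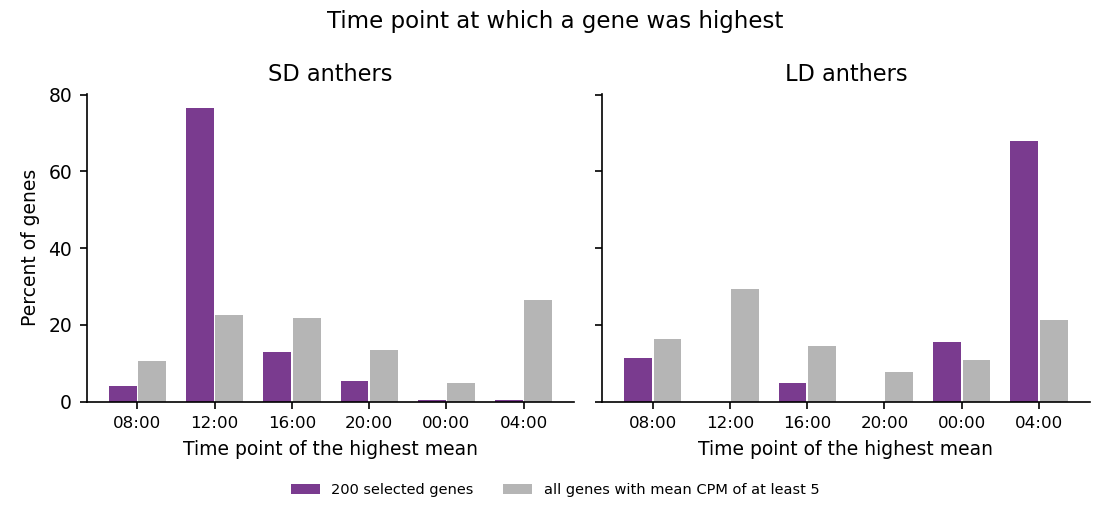
Percent of genes whose highest group mean fell at each time point in SD and LD anthers, for the 200 selected genes and all genes with a mean of at least 5 CPM. The selected genes were highest at 12:00 in SD (76.5%) and at 04:00 in LD (68%), times that the selection favors.

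A cosine with a 24-h period was fitted to log2(CPM + 1) in each photoperiod. It explained at least 0.6 of the variance for 124 of the 200 genes in SD (62%, against 18.7% of all genes) and for 111 in LD (55.5%, against 24.9%), and for 62 in both. Among these 62, the fitted peak fell between 8 and 16 h of the day in 55 genes in SD, 18 before and 37 after 12 h. In LD it fell between 0 and 8 h in 49 genes, 29 before and 20 after 4 h, and in none between 12 and 20 h. The fitted peaks of the 2 photoperiods lay a median of 7.68 h apart, and at least 6 h apart in 36 of 62 genes (58.1%, against 42.6% of 1012 genes with a fit in both). These values used the time points of the selection and carry no test.

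The time of day was tested within each photoperiod over the 4 time points outside the selection. In SD anthers 30 of the 200 genes differed among 08:00, 16:00, 20:00, and 00:00 at an adjusted p under 0.05 (edgeR F-test), where 2.08% of all genes did, and in LD anthers 44 did, where 6.6% of all genes did. Of these, 22 differed in both, as did 1.43% of all genes. Leaving out replicate 2 of SD 00:00 gave 89 in SD (15.6% of all genes) and 72 in LD (11.1%), and DESeq2 gave 60 (8.23%) and 79 (13.5%). Between 08:00 and 20:00, 24 genes were DEGs in SD, 20 higher at 08:00 and 4 at 20:00, with 1.63% of all genes called (0.879% and 0.747%). In LD there were 33, 28 higher at 08:00 and 5 at 20:00, with 3.1% of all genes called (1.88% and 1.22%). In both photoperiods, 21 genes were called in this comparison, as were 0.919% of all genes.

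The clearest morning genes among them were shared by both photoperiods. LOC_Os05g50930, which has no description in the study's sheets but carries the GO term transcription, held 21.2 and 20.7 CPM in SD and 21.2 and 22.6 CPM in LD at 08:00. At 20:00 it had 0.746 and 0.632 CPM in SD and 0.356 and 0.623 CPM in LD, and at 00:00 1.73 and 1.93 CPM in SD against 7.81 and 8.70 CPM in LD. Both SD and LD libraries were thus above their evening level by midnight, and the SD libraries were lower than the LD libraries there with no overlap. The log2 fold change between 08:00 and 20:00 was 4.92 ± 0.24 in SD and 5.47 ± 0.25 in LD, and that between SD and LD at 00:00 was -2.15 ± 0.32 (edgeR, n = 2 per group). Its values at 04:00 were 11.1 and 8.37 CPM in SD and 36 and 31.4 CPM in LD, and at 12:00 25.2 and 24.5 against 1.80 and 6.36 CPM.

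Whether the difference between photoperiods itself varied over the 4 time points was tested as an interaction. It passed for 2 of the 200 genes, LOC_Os05g50930 (edgeR adjusted p = 0.00997) and LOC_Os02g13510 (edgeR adjusted p = 0.0258), where 0.293% of all genes passed. At an unadjusted p under 0.05 there were 85 of the 200 and 5429 of all 24907 genes tested. With replicate 2 of SD 00:00 left out the count was 82 (13.3% of all genes), and in DESeq2 it was 50 (7.7% of all genes). LOC_Os02g13510 was lower at 08:00 than at 20:00 in SD (log2 fold change -1.61 ± 0.26, edgeR adjusted p = 0.00623) and higher at 08:00 than at 20:00 in LD (1.04 ± 0.25, edgeR adjusted p = 0.0344).

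Of the 200 genes, 85 (42.5%) had a description or a GO term in the study's sheets, against 27.7% of all 16484 genes. Most of these sheets list DEGs that the study chose on these same libraries, so the makeup of the selection is a description and not independent of its pattern. The transport sheet held 17 of the genes (8.5%, against 2.85% of all), the carbohydrate sheet 15 (7.5% against 1.98%), and the lipid sheet 5 (2.5% against 1.04%). Genes described as transcription factors, chaperones, or RNA-related made up 0.661%, 0.0849%, and 0.382% of all genes and numbered 0 among the 200, too small a share to read a difference from, and 2 of the 200 carried the GO term translation. Genes with the GO term photosynthesis, a group chosen after the values were seen, numbered 8 (4%, against 0.261%). The gene lists of the GO sheets used here were cut short, so shares by GO term cover listed genes only.

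The photosynthesis genes were led by *OsCAB1R* (LOC_Os09g17740), which encodes a chlorophyll a/b-binding protein of the light-harvesting antenna and is controlled by the circadian clock. In SD anthers its libraries held 539 and 496 CPM at 08:00, 699 and 722 at 12:00, and 314 and 447 at 16:00. After dark they held 12.2 and 14.5 CPM at 20:00, 5.11 and 5.42 at 00:00, and 15.8 and 19.9 at 04:00. LD libraries had 484 and 563 CPM at 08:00, 230 and 315 at 12:00, and a mean of 161 with 120 in the lower library at 16:00, followed by 3.43 and 2.36 at 20:00, 2.89 and 2.54 at 00:00, and 49.5 and 45.4 at 04:00. The level was thus alike at 08:00 and overlapped there, and at the 4 following time points both SD libraries were above both LD libraries. Only at 04:00 were the LD libraries above. At 20:00 *OsCAB1R* was up-regulated in SD by a log2 fold change of 2.19 ± 0.27 (edgeR adjusted p = 0.0191, n = 2 per group), which became 1.94 without replicate 2 of LD 20:00 and then did not pass (0.0507). From 20:00 to 08:00 the gene was 5.28 ± 0.31 log2 units higher in SD and 7.50 ± 0.34 in LD. It was also the one marker of green tissue on the lists used here, and because its level changed through the day it gives no measure of how much green tissue a library held.

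The other 7 genes with this term are known here only by locus. LOC_Os03g39610 followed *OsCAB1R* closely, with 475 and 460 CPM in SD and 405 and 504 CPM in LD at 08:00. At 12:00 it had 635 and 716 against 133 and 195 CPM, at 16:00 277 and 413 against 123 and 59.9 CPM, and at 04:00 40.5 and 43.5 against 134 and 98.1 CPM. It was up-regulated in SD at 20:00, with 23.0 and 33.2 CPM against 11.8 and 8.90 CPM (log2 fold change 1.43 ± 0.25, edgeR adjusted p = 0.0349, n = 2 per group). LOC_Os07g38960 was the third such DEG at 20:00, with 39.5 and 49.2 CPM in SD against 24.0 and 15.9 CPM in LD (adjusted p = 0.0491). Leaving out replicate 2 of LD 20:00 also ended the call of LOC_Os03g39610 (edgeR adjusted p = 0.153).

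As a group chosen after the values were seen, the photosynthesis genes are described without a test. Their median D was 0.09 at 08:00, 1.33 at 16:00, 0.48 at 20:00, and 0.60 at 00:00, where the other 192 genes had medians of 0.01, 0.14, -0.07, and -0.58. All 8 were higher in SD at 16:00, 6 at 20:00, and 7 at 00:00. LOC_Os08g02630 was the least pronounced, with 79.6 and 110 CPM in SD and 99.5 and 74.1 CPM in LD at 16:00, which overlapped.

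**Figure D4:**
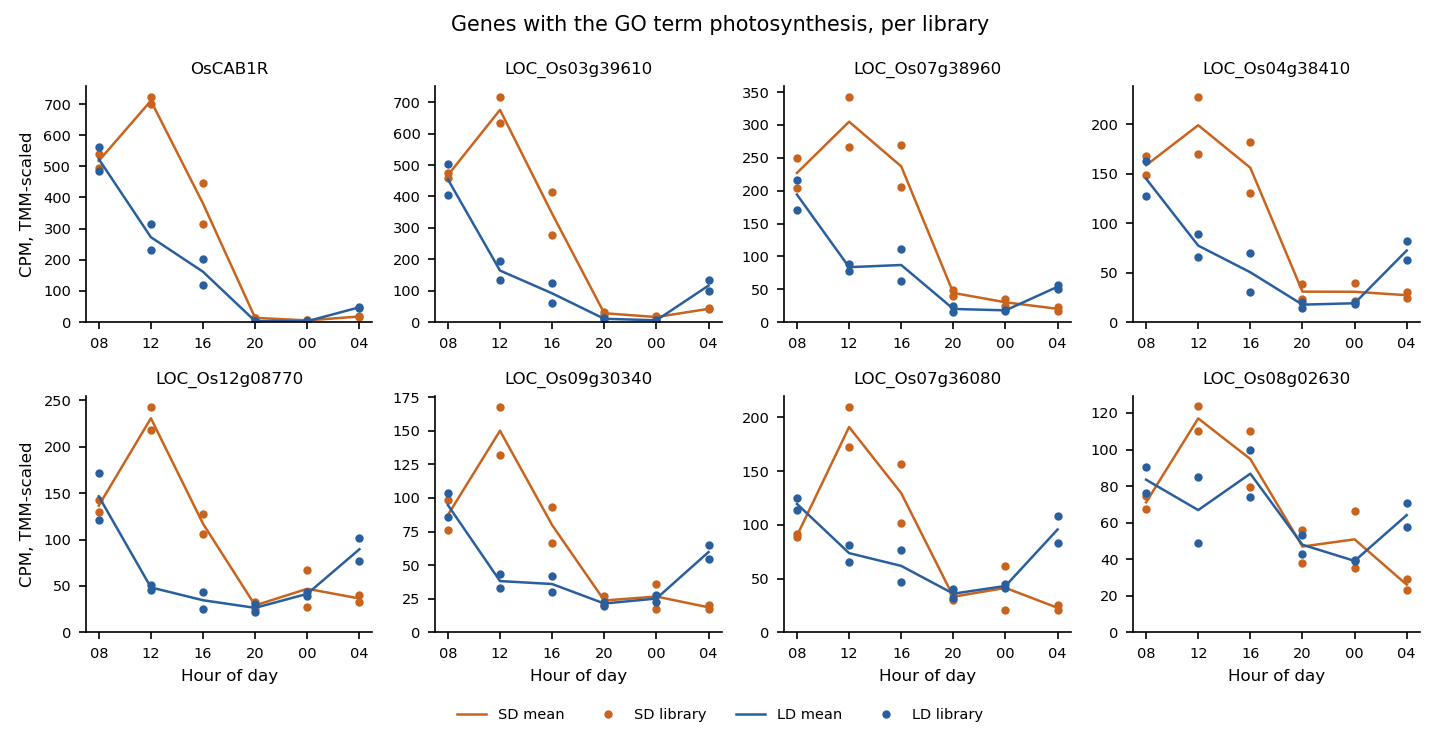
Level (TMM-scaled CPM, linear axis from 0) of the 8 selected genes with the GO term photosynthesis against hour of day. Points are single libraries and lines join the means of the 2 libraries of a group. SD and LD libraries lie close together at 08:00, SD libraries lie above at 12:00, and LD libraries lie above at 04:00, as for OsCAB1R with 699 and 722 against 230 and 315 CPM at 12:00.

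The carbohydrate genes included enzymes of the aldolase and triose phosphate steps that connect photosynthesis, sugar synthesis, and glycolysis. *OsAld-Y* (LOC_Os06g40640), a fructose-bisphosphate aldolase gene, ranked second of all 200. At 12:00 it had 13.6 and 15.2 CPM in SD and 4.21 and 3.02 CPM in LD, and at 04:00 3.0 and 4.36 against 19.8 and 18.6 CPM. At 16:00 the libraries overlapped, with 7.09 and 14.0 CPM in SD and 11.2 and 9.66 CPM in LD. At 00:00 they held 4.31 and 10.1 CPM in SD and 19.7 and 19.0 CPM in LD, a log2 fold change of -1.41 that did not pass (edgeR adjusted p = 0.132). The gene named *GADPH* in the sheet (LOC_Os03g03720) had 147 and 178 CPM in SD and 58.3 and 66.3 CPM in LD at 12:00, and 26.3 and 54.6 against 75.7 and 76.7 CPM at 00:00.

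A second glyceraldehyde-3-phosphate dehydrogenase gene (LOC_Os04g38600) had 133 and 164 CPM in SD and 39.3 and 50.5 CPM in LD at 12:00. It was higher at 08:00 than at 20:00 in SD (log2 fold change 1.19 ± 0.27, edgeR adjusted p = 0.0489) and in LD (1.53 ± 0.27, edgeR adjusted p = 0.00791). A fructose-1,6-bisphosphatase gene (LOC_Os03g16050), which acts in sugar synthesis, had 37.9 and 36.3 CPM in SD and 9.21 and 13.5 CPM in LD at 12:00, and 12.7 and 14.9 against 45.3 and 37.0 CPM at 04:00. At 20:00 its libraries held 32.4 and 34.2 CPM in SD and 30.5 and 27.5 CPM in LD, next to each other.

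*RC24* (LOC_Os06g51060), a chitinase gene, had the largest difference at noon among the 200 genes. Its SD libraries held 84.9 and 66.1 CPM at 12:00 and 2.69 to 7.81 CPM at all other time points. The LD libraries held 6.85 and 4.64 CPM at 12:00 and 18.1 and 15.4 CPM at 04:00. It was up-regulated in LD at 08:00, with 5.29 and 3.81 CPM in SD against 10.2 and 9.46 CPM in LD (log2 fold change -1.10 ± 0.26, edgeR adjusted p = 0.0235, n = 2 per group). Leaving out either LD library or replicate 2 of SD at 08:00 ended that call. A glycosyl hydrolase family 10 gene (LOC_Os03g10478) had 35.2 and 32.6 CPM in SD and 15.9 and 8.03 CPM in LD at 12:00, and 17.5 and 15.5 against 60.6 and 62.9 CPM at 04:00. Over the 15 carbohydrate genes, the median D was -0.0013 at 08:00, -0.08 at 16:00, -0.03 at 20:00, and -0.61 at 00:00. All 15 were higher in LD at 00:00, as were 171 of all 200 selected genes, and the selected genes outside this group had a median D of -0.54 there. Of the 15, 1 was a DEG higher in LD at 00:00 and 2 were at 08:00, where 0.804% and 10.4% of all genes tested were.

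Transport genes covered sugar, water, metal, silicon, auxin, and metabolite carriers. *OsMST6* (LOC_Os07g37320), a monosaccharide transporter gene, had 91.6 and 72.8 CPM in SD and 26.2 and 22.7 CPM in LD at 12:00. By 16:00 its SD libraries held 15.8 and 11.6 CPM and its LD libraries 5.62 and 7.69 CPM, a log2 fold change of 1.05 that did not pass (edgeR adjusted p = 0.0835). At 04:00 the values were 10.3 and 6.49 CPM in SD and 32.3 and 27.3 CPM in LD. Time of day passed for *OsMST6* in LD (edgeR adjusted p = 0.00427) and not in SD (0.452), and the interaction did not pass (0.101).

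An aquaporin gene (LOC_Os07g26690), for a water channel, had 388 and 438 CPM in SD and 144 and 264 CPM in LD at 12:00, and 182 and 166 against 614 and 572 CPM at 04:00. From 20:00 to 08:00 it was 1.04 ± 0.19 log2 units higher in SD (edgeR adjusted p = 0.0141) and 1.65 ± 0.19 in LD (0.000364). *Lsi6* (LOC_Os06g12310), a silicon transporter gene, had 45.4 and 42.5 CPM in SD and 7.69 and 7.14 CPM in LD at 12:00, and 15.9 and 19.7 against 59.6 and 47.4 CPM at 04:00. *OsPIN3t* (LOC_Os01g45550), which encodes an auxin efflux carrier, had 25.3 and 30.5 CPM in SD and 15 and 14.7 CPM in LD at 12:00. *Lsi6* and *OsPIN3t* were named after their values were seen.

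A heavy metal-associated domain gene (LOC_Os03g22490) was up-regulated in LD at 08:00, with 35.0 and 28.6 CPM in SD against 70.3 and 69.3 CPM in LD (log2 fold change -1.13 ± 0.17, edgeR adjusted p = 0.0053, n = 2 per group). The transporter family gene LOC_Os07g39350, described above at midnight, was also higher in LD at 08:00, with 3.06 and 2.04 against 6.19 and 8.42 CPM. It was lower at 08:00 than at 20:00 in SD by 2.28 ± 0.33 log2 units (edgeR adjusted p = 0.00314), one of the few selected genes with an evening excess. *LTPL12* (LOC_Os12g02320), a lipid transfer protein gene, had 145 and 138 CPM in SD and 83.2 and 83.5 CPM in LD at 12:00. An ATP synthase B chain gene of the chloroplast (LOC_Os03g17070) had 20.8 and 29.9 against 7.08 and 14.4 CPM. All 17 transport genes were higher in LD at 00:00 with a median D of -0.571, close to the -0.555 of the other selected genes. Of the 17, 1 was a DEG there, where 0.804% of all genes tested were called higher in LD. At 16:00, 10 were higher in SD, as were 135 of all 200 selected genes.

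Lipid genes were few. An acyl-desaturase gene of the chloroplast (LOC_Os08g09950), whose product introduces double bonds into fatty acids, had 18.4 and 15.7 CPM in SD and 3.26 and 3.13 CPM in LD at 12:00. At 04:00 it had 7.41 and 7.50 CPM in SD and 25.6 and 21.1 CPM in LD. A GDSL-like lipase gene (LOC_Os01g11710) had 60.1 and 61.9 against 16.8 and 20.5 CPM at 12:00, and a 3-ketoacyl-CoA synthase gene (LOC_Os01g34560), which elongates fatty acids, 24.3 and 24.7 against 14.9 and 12.3 CPM. None of the 5 lipid genes was a DEG at the 4 time points outside the selection. All 5 were higher in LD at 00:00, as were 171 of all 200 selected genes. Among 4 redox genes, a cytochrome P450 gene (LOC_Os06g01250) had 51.4 and 45.3 CPM in SD and 22.9 and 22.4 CPM in LD at 12:00, and 36.2 and 52.6 against 243 and 221 CPM at 04:00.

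**Figure D5:**
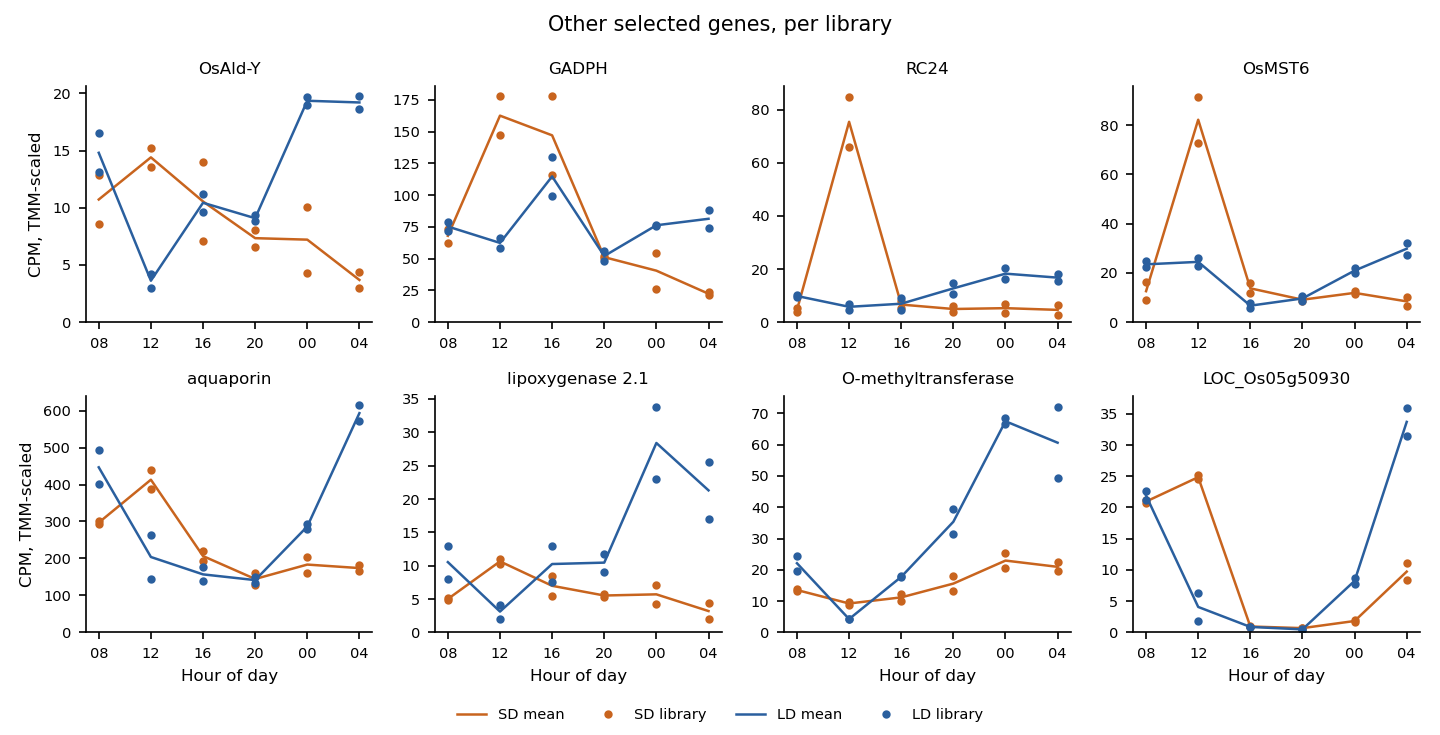
Level (TMM-scaled CPM, linear axis from 0) of 8 further selected genes against hour of day. Points are single libraries and lines join the means of the 2 libraries of a group. SD libraries are above LD libraries at 12:00 and below them at 04:00 in every panel, with RC24 at 84.9 and 66.1 CPM against 6.85 and 4.64 CPM at noon and LOC_Os05g50930 near 0 at 16:00 and 20:00 in both photoperiods.

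Of the genes, 20 (10%, against 3.56% of all) belonged to the study's magenta co-expression module, which was defined on these libraries as one that was higher in LD. The turquoise module, also higher in LD in the study, went the other way, with 1 selected gene (0.5%, against 7.45% of all). Membership of the blue and yellow modules, higher in SD in the study, was not examined. For the 20 magenta genes the median D was -0.45 at 08:00, -0.29 at 16:00, -0.38 at 20:00, and -1.42 at 00:00. At these time points 14, 15, 19, and 20 of the 20 magenta genes were higher in LD. In median, these genes were thus higher in SD at noon alone. The O-methyltransferase gene LOC_Os10g02880 had 9.84 and 8.65 CPM in SD and 4.16 and 4.38 CPM in LD at 12:00, the lowest values of its day in both photoperiods. At 20:00 it was up-regulated in LD, with 13.3 and 17.9 against 31.3 and 39.4 CPM (log2 fold change -1.19 ± 0.21, edgeR adjusted p = 0.0352, n = 2 per group). A locus annotated as an unclassified retrotransposon protein (LOC_Os06g01960) had 13.4 and 15.5 against 5.90 and 2.66 CPM at 12:00 and 5.42 and 12.3 against 35.5 and 28.4 CPM at 00:00. Of the 20, 4 were DEGs higher in LD at 08:00, 2 at 20:00, and 5 at 00:00, where 10.4%, 3.76%, and 0.804% of all genes tested were. That direction is partly set by the study's definition of the module on these libraries.

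Means of the 200 genes, not corrected for gene length, ran from 5.09 to 7859 CPM with a median of 16.3. The highest mean belonged to LOC_Os09g21370, which has no description here and was named after its values were seen. It had 10268 and 9696 CPM in SD and 5661 and 3997 CPM in LD at 12:00, and 3289 and 4871 against 14683 and 14266 CPM at 04:00. Rank 1 by the selection, LOC_Os02g42450, is also without a description. It had 31.3 and 30.1 CPM in SD and 5.78 and 4.69 CPM in LD at 12:00, and 0.988 and 1.06 against 14.6 and 8.89 CPM at 04:00. It was also up-regulated in LD at 08:00 (log2 fold change -2.60 ± 0.50, edgeR adjusted p = 0.0118, n = 2 per group).

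The last 3 genes inside the threshold were LOC_Os01g61610, LOC_Os08g08120, and *OsPIN1b* (LOC_Os02g50960), an auxin efflux carrier gene, with ranking values of 1.077, 1.075, and 1.074. The first 3 outside were 2 GDSL-like lipase genes (LOC_Os05g11950 and LOC_Os02g57110) and LOC_Os07g32620, with 1.072, 1.070, and 1.070.

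The core clock genes outside the selection give the daily course of the same libraries. *OsCCA1/OsLHY* (LOC_Os08g06110), a morning-phased clock gene that ranked 357th and so lay close to the selection, had 620 and 736 CPM in SD and 842 and 739 CPM in LD at 08:00. At 12:00 it had 441 and 465 against 78.2 and 86.8 CPM, at 16:00 44.9 and 41.6 against 9.27 and 15.2 CPM, at 00:00 74.2 and 53.7 against 124 and 106 CPM, and at 04:00 487 and 412 against 976 and 881 CPM. Its cosine peaked at 7.77 h in SD and 5.70 h in LD. *OsGI* peaked at 16.7 and 15.3 h, *OsPRR73* at 14.6 and 13.3 h, *OsLUX* at 19.3 and 18.1 h, and *OsCAB1R* at 11.8 and 10.4 h. *OsPRR95* and *OsFKF1* had peaks in LD and SD whose difference was 0.06 h and -0.04 h. Of 11 clock genes outside the selection, 2 were DEGs higher in SD and 1 higher in LD at 08:00, and none was at 16:00. There was 1 higher in SD at 20:00, and there were 2 higher in SD at 00:00. At 12:00, 2 were higher in SD (*OsPRR95* and *OsCCA1/OsLHY*) and 1 higher in LD (*OsLUX*). At 04:00, 4 were higher in SD, opposite to the selected genes (*OsFKF1*, *OsGI*, *OsPRR37*, and *OsTOC1*). Only 1, *OsCCA1/OsLHY*, was higher in LD there.

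The selected genes lay on all 12 chromosomes, with 37 on chromosome 1 (18.5%, against 14.1% of all genes), 23 on chromosome 8 (11.5% against 6.71%), and 15 on chromosome 2 (7.5% against 12.2%). By locus number, 6 pairs lay within 5 loci of each other and 1 pair, LOC_Os01g24780 and LOC_Os01g24790, was adjacent. LOC_Os09g30340, a photosynthesis gene, and LOC_Os09g30360 formed another such pair. How reads shared by similar or overlapping loci were counted is not given in the sources used here, so values of close family members carry that uncertainty.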

How the data were processed

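The 24 anther libraries were read by Ion Proton sequencing. Reads of low quality were discarded. The authors mapped the rest with MapSplice to the MSU Nipponbare genome (release 7.0), and deposited unnormalized read counts per locus. The counting tool, use of strand, and treatment of shared reads are not given in the sources used here. The study's clean-read numbers follow the column totals of the same label over SD libraries. Over LD libraries the column totals follow the numbers labelled 4 h earlier, and which label is shifted is not settled here.

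CPM used column sums for the selection and TMM-scaled totals for printed levels. Separate fits of 4 libraries per time point were made in edgeR 4.0.16 under R 4.3.3 (filterByExpr, TMM, quasi-likelihood F-test, Benjamini-Hochberg over all genes), and time of day and interaction were tested on the 16 libraries outside the selection. All 200 genes passed the filter. Standard errors are those implied by the F statistic and the log2 fold change. With 2 libraries per group, p values weigh a difference against a spread between replicates that was estimated with information shared across genes. In the fit of 16 libraries that spread was pooled over the groups. The fits were also run on simulated counts with known changes. Those counts had a single fixed spread between replicates, lower than the spread estimated at 00:00 and 16:00. That run therefore gives no measure of error rates in these libraries. Alternatives were DESeq2 1.42.0, other scaling and filters, a replicate block, one fit of all libraries, and leaving out each library.

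Genes named are those the study names, the 10 annotated genes ranked highest, the 2 most abundant of each annotation group, and at each of 4 time points the 2 smallest p values per direction. The members, lists, and rules were chosen with earlier results of these data known. No locus matched the symbol table at hand, so names come from the study's sheets, and promoter motifs were not analysed here.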

Additional observations from a re-analysis of the deposited data

Results flagged for a closer look

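For 2 of the 200 genes the difference between SD and LD anthers itself varied over 08:00, 16:00, 20:00, and 00:00, by the interaction of photoperiod and time point in edgeR. For LOC_Os05g50930 the adjusted p was 0.00997. SD and LD libraries were together at 08:00, with 21.2 and 20.7 against 21.2 and 22.6 CPM, and apart at 00:00, with 1.73 and 1.93 against 7.81 and 8.70 CPM. Without replicate 2 of LD 00:00 the adjusted p was 0.0537. For LOC_Os02g13510 the adjusted p was 0.0258. Its SD libraries held 3.06 and 2.09 CPM at 08:00 against 9.36 and 12.8 CPM in LD, and 8.86 and 7.06 against 4.85 and 5.87 CPM at 20:00. It no longer passed when any 1 of 10 libraries was left out, namely replicates 1 and 2 of SD 08:00, SD 16:00, LD 08:00, and LD 20:00, replicate 1 of SD 20:00, and replicate 1 of LD 00:00. The adjusted p then lay between 0.0525 and 0.152.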

How the results depend on the processing

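Counts are of the 200 genes, with the share of all genes tested under the same setting in parentheses. Without a filter on low counts there were 21 at 16:00 (4.19%), 32 at 00:00 (3.97%), 99 and 124 for time of day in SD and LD (11.3% and 13.4%), 111 for the interaction (12.2%), and 40 between 08:00 and 20:00 in SD (3.23%). DESeq2 gave 22 at 16:00 (5.8%), 49 at 00:00 (7.93%), 60 and 79 for time of day in SD and LD (8.23% and 13.5%), and 50 for the interaction (7.7%). One fit of all 24 libraries gave 20 at 16:00 (5.82%), 57 at 00:00 (10.2%), 69 for time of day in LD (12.3%), and 18 for the interaction (2.22%). Library totals without TMM gave 6 at 20:00 (2.62%), and dropping the fold-change threshold gave 39 at 08:00 (25%). Library totals also moved the median log2 fold change of all genes to 0.13 at 08:00 and 0.17 at 00:00, where that of the 200 genes was 0.02 and -0.54. RLE size factors and a filter of at least 1 CPM in 2 libraries left every count within 1.5 times its main value.

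The main fits did not pair libraries by replicate number. Deviations of same-numbered libraries correlated between -0.23 and 0.27 at the 6 time points, with 0.27 at 16:00 and 0.18 at 00:00. Of 66 pairs of groups, 18 exceeded 0.1. These correlations cannot show whether libraries were paired at collection. With the replicate number as a block there were 23 at 16:00 (8.86%), 5 at 20:00 (3.36%), and 62 at 00:00 (12.9%). A crossed pairing, chosen after seeing the data, gave 25 at 08:00 (19.9%) and 12 at 20:00 (9.32%).

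Leaving out 1 library gave 13 to 38 genes at 08:00, 0 to 31 at 16:00, 1 to 14 at 20:00, and 8 to 115 at 00:00. It gave 16 to 89 for time of day in SD, 24 to 72 in LD, 1 to 82 for the interaction, and 15 to 34 and 16 to 38 between 08:00 and 20:00 in SD and LD. Both the highest interaction count and the highest count at 00:00 came without replicate 2 of SD 00:00. Selecting on 1 replicate kept 141 to 144 of the 200 genes. The lone library of a group was assumed to vary like the others. No called gene changed direction under any alternative run. With 2 libraries per group, a difference that does not pass may still be present.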
